A study of Mus musculus with 36 samples.

Results

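The genes of the IFT-A complex and of dynein-2, the machinery of retrograde intraflagellar transport, were followed in a mouse chondrocyte line. The members are 10 genes, taken by gene name from 53421 genes in the count table. They comprise 6 IFT-A genes, Ift122, Ift140, Wdr19, Wdr35, Ttc21b and Ift43, and 4 genes particular to dynein-2, Dync2h1, Dync2li1, Wdr34 and Wdr60. All 10 passed the filter on low counts in every test, and no library held fewer than 92 reads for any of them.

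Poly(A) RNA was sequenced from conditionally immortalised, fibroblast-like chondrocytes that were transfected with a non-targeting siRNA pool (NT) or with a pool against Ift88 (IFT88siRNA). Ift88 encodes a subunit of IFT-B, the anterograde partner of IFT-A. Both siRNA groups were labelled wild type, received the siRNA at 50 nM by the labels (the study's methods give another dose) and came from 1 cell line. Cells were left without IL-1β (0 h) or given 10 ng/ml IL-1β, an inflammatory cytokine, for 1, 2, 4, 8 or 24 h, with 3 libraries in each of the 12 conditions (36 libraries). Nothing in the labels says that the 3 libraries came from separate cultures, so p-values measure the spread between these libraries, which may be technical.

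Intraflagellar transport builds and maintains the primary cilium, the antenna-like organelle that many cells carry. Kinesin-2 moves trains of IFT-B outwards along the axoneme, and dynein-2, bound to IFT-A, returns them to the cell body. IFT-A also helps membrane receptors to enter the cilium, through adaptors such as Tulp3, and loss of its subunits or of dynein-2 in humans gives skeletal ciliopathies with short ribs.

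Total counts on genes were from 19337022 to 38304127 per library, with medians of 21672803.5 in NT and 25873754 in IFT88siRNA. Ift88 was depleted in every comparison. It lay between 5.83 and 10.2 CPM (reads of the gene scaled to the library size) in the 18 NT libraries and between 1.43 and 3.10 CPM in the 18 IFT88siRNA libraries, which did not overlap (log2 fold change -1.47 to -2.12 by time point, called at all 6). Of 11 chondrocyte markers, 5 had a mean of at least 1 TPM, a scale of transcript share corrected for length, in NT at 0 h. Sox9 was at 11.3 TPM and Col2a1 at 8.35 TPM, while Acan, Col9a1 and Matn3 were below 1 TPM in every library. The 8 fibroblast markers were all over 1 TPM. Of 5 macrophage markers, Ptprc, Adgre1, Csf1r and Itgam were below 1 TPM in every library, while Cd68 was at 10.7 TPM in NT at 0 h.

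The genes are dispersed over the genome (GRCm38): Wdr35, Ift43 and Wdr60 on chromosome 12, Ift140 and Dync2li1 on 17, Ttc21b and Wdr34 on 2, and the others on 5, 6 and 9. No member shares exonic bases with another annotated gene, which matters because the counting was without regard to strand. By the starts of the GENCODE annotation, Ift122, Ift140, Dync2h1 and Dync2li1 each start within 1000 bp of a gene on the opposite strand. The promoters shown are those of the 4 genes that changed most in NT at 4 h of IL-1β. That of Ift43, which did not fall then, is shown beside them. Each runs from 250 bases before to 50 bases after the RefSeq start (GRCm38.p6), 5′ to 3′ on the strand of the gene, with half-sites of the X-box in capitals. RFX factors, which drive many ciliary genes, bind the X-box.
Wdr35, at chr12:8973751-8974050 on the + strand:
Wdr35: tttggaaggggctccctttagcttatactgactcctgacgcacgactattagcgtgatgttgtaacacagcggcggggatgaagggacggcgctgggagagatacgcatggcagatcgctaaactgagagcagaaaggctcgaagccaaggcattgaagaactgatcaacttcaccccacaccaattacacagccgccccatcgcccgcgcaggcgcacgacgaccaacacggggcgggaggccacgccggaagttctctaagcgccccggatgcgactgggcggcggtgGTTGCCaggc
Ift140, at chr17:25015836-25016135 on the + strand:
Ift140: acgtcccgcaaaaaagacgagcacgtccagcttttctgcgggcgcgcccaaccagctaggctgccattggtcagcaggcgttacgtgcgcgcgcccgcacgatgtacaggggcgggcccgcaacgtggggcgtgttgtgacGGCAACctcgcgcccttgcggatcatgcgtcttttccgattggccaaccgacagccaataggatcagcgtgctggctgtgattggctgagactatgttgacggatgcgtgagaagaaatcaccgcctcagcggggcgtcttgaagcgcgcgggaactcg
Wdr19, at chr5:65199446-65199745 on the + strand:
Wdr19: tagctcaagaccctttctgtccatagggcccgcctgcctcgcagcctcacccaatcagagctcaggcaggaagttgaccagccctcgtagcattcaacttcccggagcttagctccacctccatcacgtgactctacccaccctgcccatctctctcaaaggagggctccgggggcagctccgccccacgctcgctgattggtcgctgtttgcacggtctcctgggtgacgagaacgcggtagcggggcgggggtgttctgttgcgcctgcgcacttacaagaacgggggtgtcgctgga
Wdr60, at chr12:116262976-116263275 on the - strand:
Wdr60: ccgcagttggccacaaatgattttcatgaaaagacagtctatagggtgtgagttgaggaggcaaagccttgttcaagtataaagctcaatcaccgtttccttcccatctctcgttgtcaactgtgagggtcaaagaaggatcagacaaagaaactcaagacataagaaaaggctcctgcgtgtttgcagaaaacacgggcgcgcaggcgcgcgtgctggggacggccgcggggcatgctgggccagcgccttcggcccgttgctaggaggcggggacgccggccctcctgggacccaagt
Ift43, at chr12:86082311-86082610 on the + strand:
Ift43: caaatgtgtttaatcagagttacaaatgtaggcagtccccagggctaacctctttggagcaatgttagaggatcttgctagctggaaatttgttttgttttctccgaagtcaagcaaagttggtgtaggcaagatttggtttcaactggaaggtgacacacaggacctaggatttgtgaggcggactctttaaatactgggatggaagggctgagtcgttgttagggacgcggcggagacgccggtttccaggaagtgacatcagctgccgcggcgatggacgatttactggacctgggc

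The RefSeq table held promoters of 8 of the 10 members, without Ift122 and Dync2li1. The half-site GTTGCC, searched on both strands, was present in 3 of the 8 (Ift140, Wdr35 and Dync2h1) and in 12.5% of the 32851 promoters in the table. In Ift140 the half-site begins 109 bases before the start, and in Wdr35 it lies within the transcribed bases, 40 after the start. The RefSeq start of Wdr35 was 109 bp from that of the GENCODE annotation and that of Dync2h1 7388 bp. The Dync2h1 window is therefore not shown, although it is counted among the 8 and among the 3 with the half-site. CCAAT, whose first letters can be the last letters of GTTGCC, was present in 6 of 8 promoters, that of Dync2h1 among them, against 37.4% in the table. The AP-1 site TGANTCA was in 0 of 8 and 7.81%, and the NF-κB site in 0 of 8 and 8.46%. A match describes letters in the window and not a site in use, and these motifs were chosen after the values below were known.

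Before IL-1β, the 10 transcripts differed by about an order of magnitude in level. On the TPM scale, which is divided by transcript length, Wdr35 (a peripheral IFT-A subunit with WD40 repeats) was at 56.1 ± 5.06 TPM (SD, n = 3) in NT at 0 h and Ift43, the smallest IFT-A subunit, at 52.5 ± 2.44 TPM. These were followed by Dync2li1, the light intermediate chain of dynein-2, at 26.03 ± 0.991 TPM. The other members lay below it: Ift140 at 17.4 TPM, Ift122 at 14.95 and Wdr34 at 14.9. The lowest were Ttc21b at 10.4, Wdr19 at 9.81, Wdr60 at 6.39 and Dync2h1, the motor heavy chain, at 5.61 TPM. The neighbours Wdr35 and Ift43, Ift122 and Wdr34, Ttc21b and Wdr19, and Wdr60 and Dync2h1 overlapped in their 3 libraries, and the other neighbours in this order did not. The 2 most abundant were thus both peripheral IFT-A subunits.

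**Figure D1:**
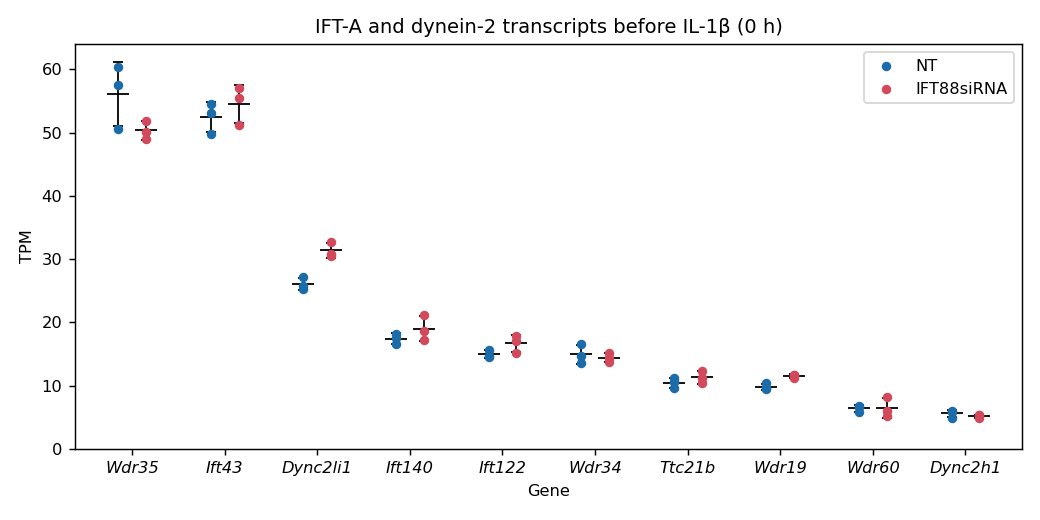
TPM of each member at 0 h, with 1 point per library, the mean as a dash and the SD as bars, in NT (blue) and IFT88siRNA (red). Wdr35 and Ift43 stand at 49.0 TPM or above in every library, and Dync2h1 and Wdr60 at 8.18 TPM or below.

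After IL-1β the transcripts of the members went mostly down, and 4 h was the lowest mean of 6 of them in NT. Untreated libraries were taken at 0 h only, so IL-1β and time since 0 h cannot be told apart. In NT cells at 4 h, 9 of 10 members fell and 0 rose by adjusted p (edgeR's quasi-likelihood test, Benjamini-Hochberg over 16048 genes), where 29.7% of all tested genes fell and 31.2% rose. For a fold change over 1.5 in addition, 4 members fell, against 12.4% of all genes. The median change over the members was -0.47 on the log2 scale, beside -0.02 over all genes. In 9 members all 3 libraries of 4 h lay below all 3 of 0 h, as they did for 33.3% of all genes. Each comparison against 0 h uses the same 3 libraries of 0 h. In bulk RNA, fewer cells that express a gene and less RNA per cell cannot be told apart.

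Wdr35 fell most. Its 3 NT libraries at 0 h held 105, 103 and 100.2 CPM and those at 4 h 50.9, 47.6 and 45.4 CPM, a log2 fold change of -1.09 (SE 0.052, adjusted p = 3.2e-15). It did not recover at 8 h, with 42.6, 43.8 and 43.8 CPM (-1.24, SE 0.052, adjusted p = 4.8e-16), and had partly returned at 24 h to 69.3, 71.9 and 67.6 CPM (-0.56, SE 0.049, adjusted p = 9.9e-10). The libraries at every later time were below all 3 at 0 h. At each time alone, 30.1%, 31.5%, 33.3%, 29.1% and 27.1% of all genes lay so, in order of time. Wdr35 fell already at 1 h (-0.20, adjusted p = 0.0016).

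Ift140 and Wdr19, core IFT-A subunits of related architecture with WD40 repeats, showed a sharper course. Ift140 held 53.1, 51.1 and 51.0 CPM at 0 h and 28.6, 25.9 and 29.0 CPM at 4 h in NT (-0.89, SE 0.055, adjusted p = 5.1e-13). By 8 h it was at 46.7, 46.8 and 50.2 CPM, where the change from 0 h did not pass (-0.10, adjusted p = 0.088) but all 3 libraries still lay below all 3 of 0 h, as they did for 29.1% of all genes. The 8 h change passed with upper-quartile scaling (-0.15, adjusted p = 0.015) and without NT replicate 3 of 8 h. All 3 libraries of 4 h lay below those of 0 h, as for 33.3% of all genes, and below those of 2 h and of 8 h. The share of all genes was not counted against 2 h or 8 h.

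Wdr19 held 28.6, 30.5 and 29.0 CPM at 0 h, 32.4, 35.4 and 35.1 CPM at 1 h and 16.3, 15.01 and 15.3 CPM at 4 h. The rise at 1 h (0.22, SE 0.067, adjusted p = 0.0068) was followed by a fall of -0.91 (SE 0.074, adjusted p = 9.4e-11) at 4 h. At 24 h Wdr19 was at 22.9 to 23.97 CPM, still below its start (-0.33, adjusted p = 0.00025).

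Wdr60, an intermediate chain of dynein-2, is the fourth member over the fold threshold. It held 10.6, 10.8 and 9.62 CPM at 0 h and 5.21, 6.38 and 6.75 CPM at 4 h in NT (-0.74, SE 0.126, adjusted p = 1.7e-05), so the groups did not overlap. It had fallen at 2 h (-0.48, adjusted p = 0.0013) with 7.04 to 7.79 CPM.

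The other 5 members that fell at 4 h did so by less than the fold threshold. However, Ttc21b and Wdr34 passed it with upper-quartile scaling (-0.59 each) and with limma on log2(TPM + 1) (-0.66 and -0.73), so that 6 members were then over it. The median of all genes was itself at -0.14 and -0.22 in those fits. Relative to it, Ttc21b and Wdr34 were at -0.45 each with upper-quartile scaling and at -0.44 and -0.51 on log2(TPM + 1), short of 1.5-fold. Over the settings that kept every library, 4366 to 5083 genes were over the threshold in either direction at 4 h, in place of 4602. Ttc21b, a peripheral IFT-A subunit, and Wdr34, the second intermediate chain of dynein-2, changed by -0.47 each (adjusted p = 0.00013 and 7e-05). Dync2h1, the motor subunit, changed by -0.43, Ift122, the other core subunit with WD40 repeats, by -0.35, and Dync2li1 by -0.20 (adjusted p = 0.024). The 4 h fall of Dync2li1 did not pass without NT replicate 3 of 0 h (-0.15, adjusted p = 0.12) or NT replicate 2 of 4 h (-0.16, adjusted p = 0.10), in edgeR's test.

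Ift43 stood apart from the rest. At 0 h it held 17.1, 17.4 and 18.1 CPM and at 2 h 23.2, 21.6 and 21.6 CPM, a rise of 0.33 (SE 0.079, adjusted p = 0.00085) that was 0.06 on the log2(TPM + 1) scale and did not pass there (limma, adjusted p = 0.51). At 4 h it was at 20.96, 16.5 and 21.2 CPM (0.16, adjusted p = 0.095), overlapping 0 h through NT replicate 2 alone, and without that library the change passed (0.26, adjusted p = 0.0047). On the TPM scale this change was below 0 (-0.09, adjusted p = 0.29, limma). It fell only at 24 h, to 16.0, 14.6 and 13.9 CPM (-0.24, adjusted p = 0.017).

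**Figure D2:**
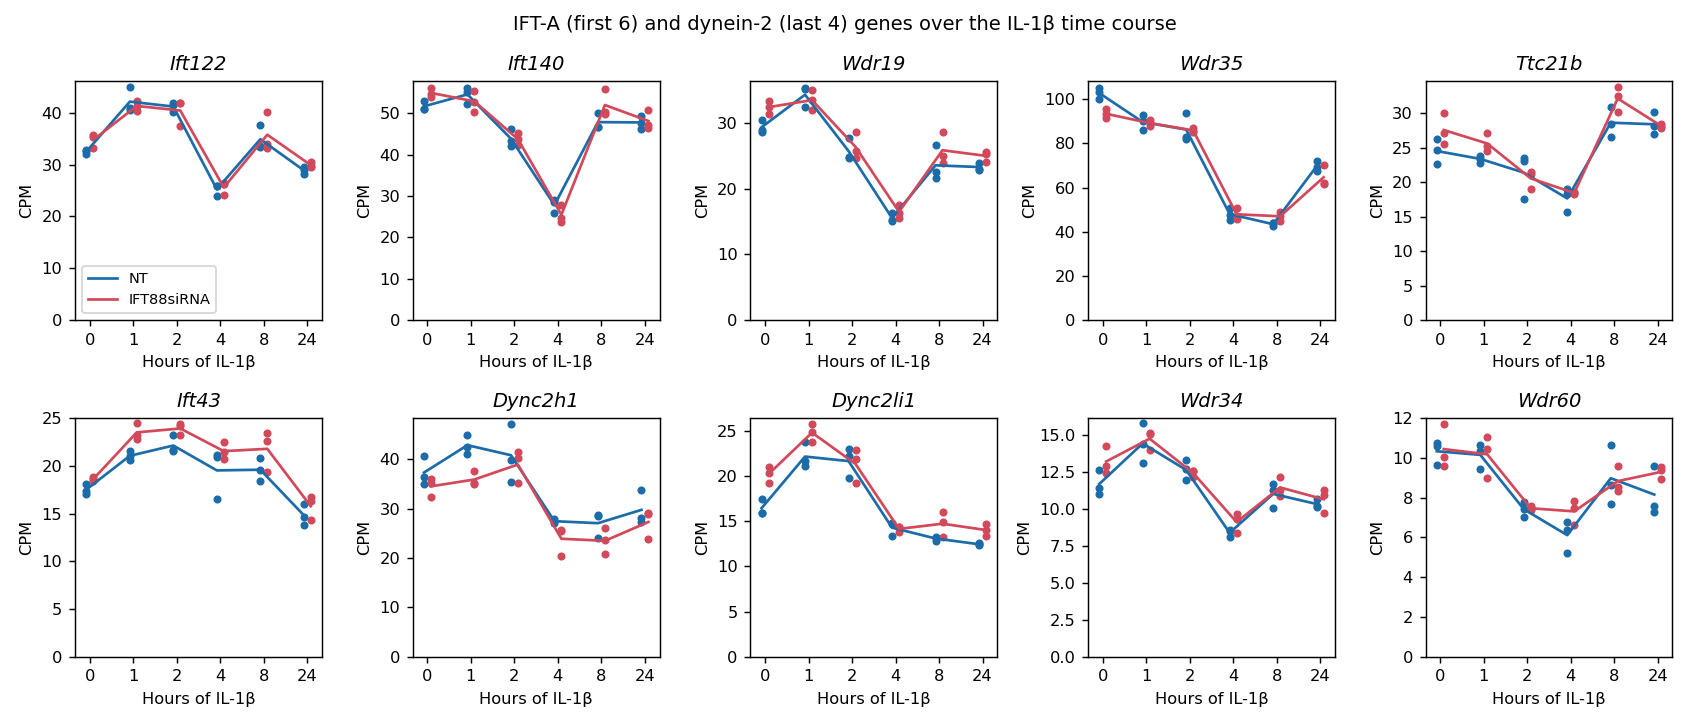
CPM of the 10 members over hours of IL-1β, with 1 point per library and lines through the means of 3 libraries, in NT (blue) and IFT88siRNA (red). The 4 h point is the lowest mean of 6 members in NT, while Wdr35 and Dync2h1 are lowest at 8 h and Ift43 and Dync2li1 at 24 h.

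Some members rose first. At 1 h, 5 of 10 passed higher in NT (Dync2li1, Ift122, Wdr34, Ift43 and Wdr19) and 1, Wdr35, lower, where 26% of all genes passed higher and 25.8% lower. At 2 h, 3 passed higher (Dync2li1, Ift122 and Ift43), against 30.7% of all genes, and 4 lower (Wdr60, Wdr35, Ift140 and Wdr19), against 30.2%. Dync2li1 rose from 15.9, 15.9 and 17.4 CPM at 0 h to 23.7, 21.6 and 21.1 CPM at 1 h (0.43, SE 0.069, adjusted p = 1.3e-05). These libraries did not overlap, as for 30.1% of all genes in this direction. Its difference from 0 h was 0.39 at 2 h (adjusted p = 2.8e-05). At 1 h Ift122 rose by 0.37 (adjusted p = 3.8e-06) and Wdr34 by 0.30 (adjusted p = 0.0031). The TPM values gave smaller early rises: with limma on log2(TPM + 1), Dync2li1 passed at 1 h (0.26, adjusted p = 0.0018), whereas Ift122 (0.20, adjusted p = 0.050), Wdr19 (0.18, adjusted p = 0.070), Ift43 (0.08) and Wdr34 (0.02) did not. At 2 h none of the 3 passed in this fit: Dync2li1 was at 0.14 (adjusted p = 0.050), Ift122 at 0.07 (adjusted p = 0.48) and Ift43 at 0.06 (adjusted p = 0.51), while Wdr34, at 0.11 by counts, passed lower (-0.25, adjusted p = 0.013). On this scale the median of all genes was itself at -0.14 at 1 h, -0.22 at 2 h and -0.22 at 4 h.

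At 8 and 24 h the members parted. At 8 h, 1 of 10 passed higher (Ttc21b, 0.23, adjusted p = 0.030), against 27.1% of all genes, and 4 lower, against 25.3% of all genes. The 4 were Wdr35, Dync2h1 (-0.46), Dync2li1 (-0.32) and Wdr19 (-0.31). The 8 h rise of Ttc21b did not pass with upper-quartile scaling (0.18, adjusted p = 0.077) or on log2(TPM + 1) (0.14, adjusted p = 0.30). Nor did it pass without NT replicate 2 or 3 of 0 h or 1 or 3 of 8 h. At 24 h, 7 passed lower, against 23.2% of all genes, and Ttc21b passed higher (0.21, adjusted p = 0.045), against 21.7%. In all 8 members passed at 24 h, against 44.9% of all genes, and 4 did so without NT replicate 2 of 24 h. Of the dynein-2 genes, Dync2h1 was at 79.8%, Wdr60 at 78.9%, Dync2li1 at 75.7% and Wdr34 at 88.4% of the NT mean of 0 h at 24 h.

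Taking the 5 times after IL-1β together, all 10 members passed in NT (adjusted p), but so did 88.4% of all genes. Ift140, Wdr19, Wdr35 and Wdr60 also passed the fold threshold at 1 or more times, 4 of 10 members against 50% of all genes (6 members with upper-quartile scaling and in each TPM fit). Over the settings that kept every library, 7520 to 9260 genes were over it, in place of 8017. The share of members over the whole time course was therefore near or below that of all genes.

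Cells depleted of Ift88 went through a like course. At 4 h in IFT88siRNA, 9 of 10 members fell, against 29.4% of all genes, and Ift43 rose (0.21, SE 0.073, adjusted p = 0.016), where 30.4% of genes passed higher. This rise did not pass with upper-quartile scaling (0.10, adjusted p = 0.23) or without IFT88siRNA replicate 2 of 4 h (0.17, adjusted p = 0.071), and on log2(TPM + 1) it was below 0 (-0.03, adjusted p = 0.69). The median change over the members was -0.53, beside -0.01 over all genes. The fold threshold was passed by 3 members, against 13.3% of all genes: Ift140 (54.1, 54.6 and 56.2 CPM at 0 h and 27.8, 23.8 and 24.8 CPM at 4 h, -1.11, SE 0.063, adjusted p = 1.4e-13), Wdr19 (-0.98, SE 0.073, adjusted p = 2.6e-11) and Wdr35 (-0.96, SE 0.053, adjusted p = 7.8e-14).

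Wdr60 changed by -0.51 and Ttc21b by -0.58, and these with Wdr34, Dync2h1 and Dync2li1 lay between -0.51 and -0.58, just short of the threshold of 1.5-fold. The number over it was therefore unstable: 8 members passed with upper-quartile scaling and on the TPM scale, and 5 without IFT88siRNA replicate 2 or 3 of 4 h. Over the settings that kept every library, 4280 to 5112 genes were over it in either direction at 4 h, in place of 4722. On leaving out 1 library they numbered 4624 to 4847. The median of all genes was itself at -0.12 with upper-quartile scaling and at -0.19 on log2(TPM + 1). Relative to it, these 5 members were at -0.51 to -0.57 with upper-quartile scaling. On log2(TPM + 1) they were at -0.33 to -0.52 relative to it, and Ift122 was at -0.59. Wdr35 in these cells held 95.6, 91.5 and 93.1 CPM at 0 h, 50.9, 47.1 and 45.6 CPM at 4 h and 47.3, 48.9 and 44.8 CPM at 8 h (-0.99, SE 0.053, adjusted p = 9.1e-14). All 10 members passed over the whole course, where 86% of all genes did, and 3 passed the fold threshold, against 48.2%.

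**Figure D3:**
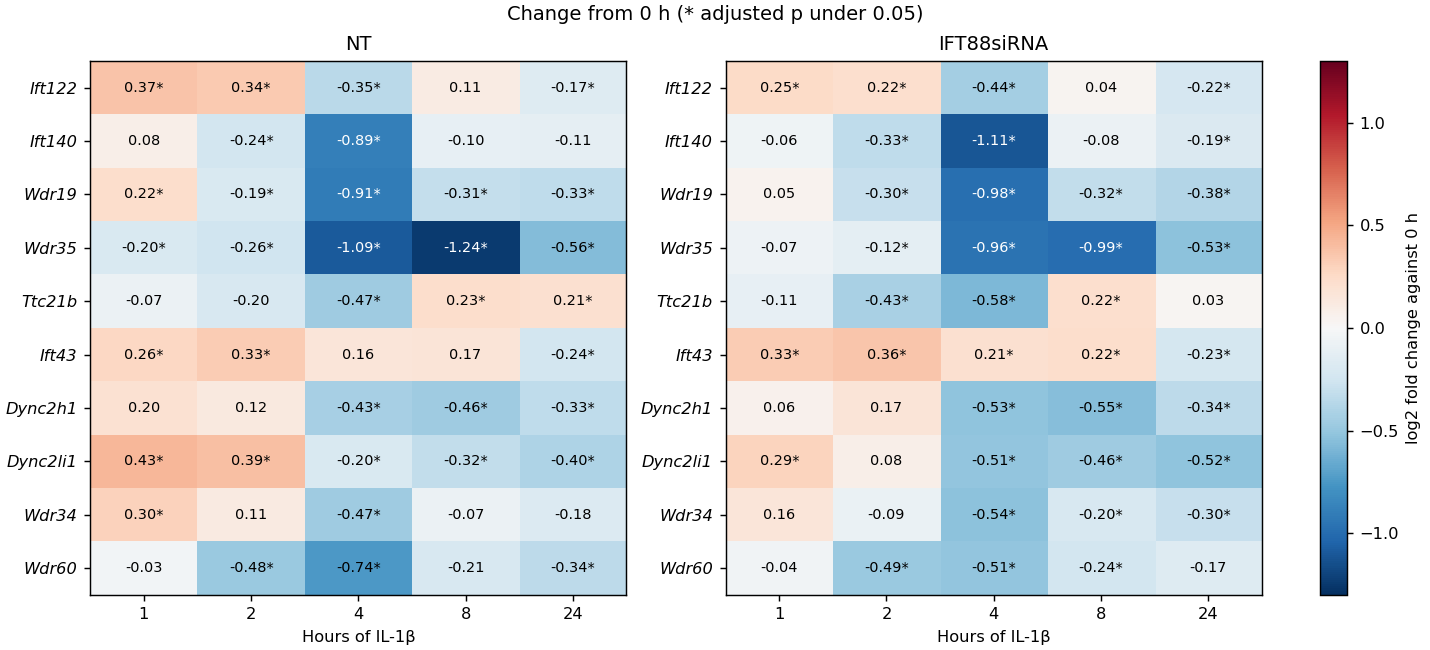
Log2 fold change of each member against 0 h of its own siRNA group at 1 to 24 h of IL-1β (columns), in NT (left) and IFT88siRNA (right), with an asterisk where adjusted p was under 0.05. The most negative values are those of Wdr35 at 8 h in NT (-1.24) and of Ift140 at 4 h in IFT88siRNA (-1.11), and Ift43 is the member above 0 at 4 h in both, on the count scale but not on the TPM scale (-0.09 and -0.03).

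Whether depletion of Ift88 changed the response itself was tested as the change from 0 h in IFT88siRNA minus that in NT. In this test 0 of 10 members passed at any single time or in the joint test (edgeR's quasi-likelihood test), where 5.53% of 16710 genes passed in the joint test and 1.2% were called. At the single times, 2.37%, 1.24%, 1.18%, 0.993% and 0.341% of all genes passed, in order of time. Without adjustment, 2 members had p under 0.05 in the joint test, Wdr35 and Dync2li1, and the share of all genes was not counted for this. With DESeq2, 0 members passed at any time. The smallest joint adjusted p was that of Wdr35 (0.20), followed by Dync2li1 (0.22). The differences at 4 h ranged from -0.31 for Dync2li1 (95% interval -0.52 to -0.09, adjusted p = 0.16) to 0.24 for Wdr60 (-0.09 to 0.57). For Ift140 the interval was -0.38 to -0.04 (adjusted p = 0.26). Over all members and times the intervals reached from -0.52 to 0.57, so differences inside these bounds could not be set aside with 3 libraries per condition.

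**Figure D4:**
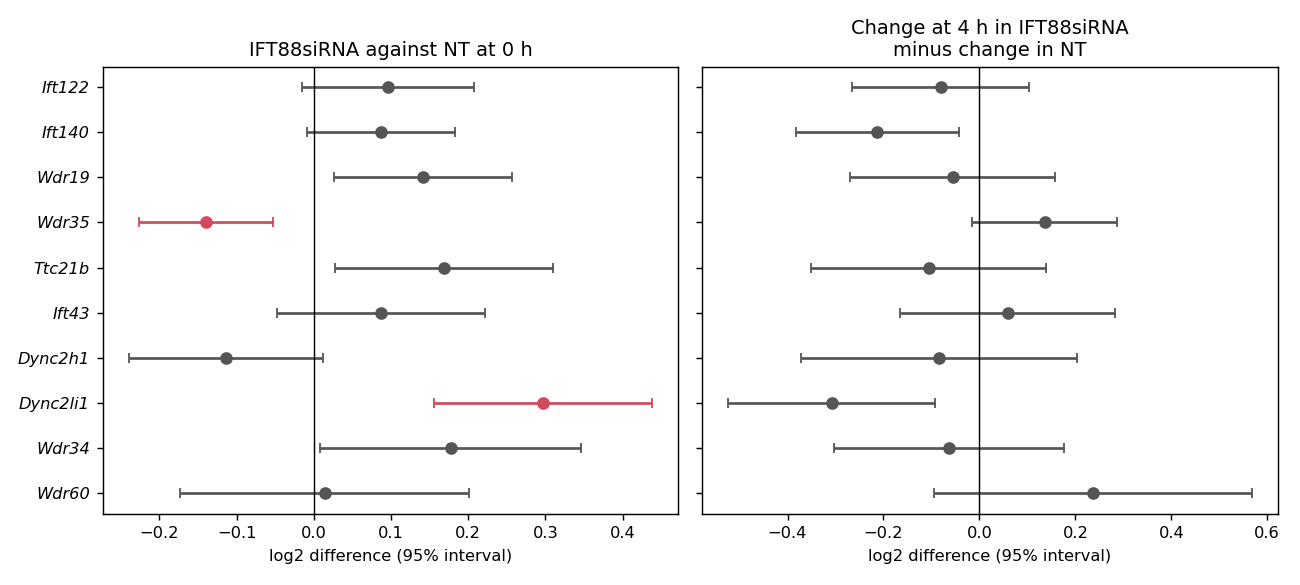
Left, log2 difference between IFT88siRNA and NT at 0 h; right, difference between the 2 groups in the change from 0 h to 4 h; points are estimates with 95% intervals, and red marks adjusted p under 0.05. Dync2li1 (0.30) and Wdr35 (-0.14) are red at 0 h, and no member is red on the right.

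The direct effect of the siRNA on the members was small. At every time point, 0 of 10 were called changed by adjusted p and a fold over 1.5, where 2.23%, 2.66%, 0.496%, 0.432%, 0.692% and 1.15% of all genes were called, in order of time from 0 h. DESeq2 also called 0 members at each time. On adjusted p alone, 2 of 10 passed at 0 h, against 19.5% of all genes, 1 at 1 h, against 19%, and 0 at each later time, against 2.76%, 3.85%, 4.25% and 8.66%. With no adjustment, p was under 0.05 for 5, 3, 0, 1, 0 and 2 members, in order of time, and the share of all genes was not counted for this. At 0 h, 5 members (Dync2li1, Ift122, Ift140, Ift43 and Wdr19) had all 3 IFT88siRNA libraries above all 3 NT libraries, as did 16.7% of all genes, and 1, Wdr35, had them below, as did 16.8%. The 95% intervals of the 60 differences lay within -0.43 to 0.51.

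Dync2li1 was the member with the largest difference. At 0 h it held 19.3, 20.3 and 21.001 CPM in IFT88siRNA and 15.9, 15.9 and 17.4 CPM in NT, with no overlap (0.30, SE 0.068, adjusted p = 0.0034). At 24 h the groups again did not overlap, at 13.3 to 14.7 and 12.3 to 12.6 CPM, as for 12.4% of all genes in this direction. The 24 h difference did not pass (0.17, adjusted p = 0.17), and at 2 and 4 h the differences were -0.02 each. Over the time course Dync2li1 was the 1 member that passed the joint test (adjusted p = 0.0023), where 31.8% of all genes did. With the fold threshold in addition, 0 members were called over the time course, against 5.19%. Without replicate 1 or 2 of all conditions Dync2li1 did not pass the joint test (adjusted p = 0.063 and 0.12).

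Wdr35 was lower at 0 h in IFT88siRNA (95.6, 91.5 and 93.1 CPM) than in NT (105, 103 and 100.2 CPM), with no overlap (-0.14, SE 0.042, adjusted p = 0.022). This difference did not pass without NT replicate 1 (-0.12, adjusted p = 0.091) or 2 (adjusted p = 0.070) or without IFT88siRNA replicate 3 (adjusted p = 0.080). Nor did it pass with limma on log2(TPM + 1) (-0.15, adjusted p = 0.23). At 8 h all 3 IFT88siRNA libraries lay above all 3 of NT, as they did for 13% of all genes, and the difference did not pass (0.10, adjusted p = 0.32). Dync2h1, for which the fit gave negative differences at all 6 times, passed at 1 h, with 35.2, 37.7 and 34.9 CPM in IFT88siRNA and 42.6, 45.0 and 41.0 CPM in NT (-0.26, SE 0.055, adjusted p = 0.0037), but not with limma on log2(TPM + 1) (-0.27, adjusted p = 0.15). Its joint test was on the edge of the threshold: it missed it in edgeR's test (adjusted p = 0.055) and passed with DESeq2 (0.024), DESeq2 size factors (0.0497), upper-quartile scaling (0.045), no filter (0.00049), the replicate block (0.041) and without replicate 3 (0.015). The joint test of Ift43 missed the threshold (0.070), although its difference was above 0 at all 6 times (0.09 to 0.15).

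Related transcripts at 4 h in NT are given from lists of ciliary transport genes, and each count is to be read against the 29.7% of all tested genes that fell and the 31.2% that rose. Of 9 tested light chains and shared subunits of dynein-2, 5 fell and 0 rose (median -0.39). Several of these are near-identical copies (Dynlt1a, Dynlt1b, Dynlt1c and Dynlt1f), among which reads may be divided, so their values are uncertain. Of 17 IFT-B genes, 12 fell and 1 rose (median -0.29), with Ift27 (-0.59) and Ift172 (-0.56) lowest, and Ift81 the riser (0.19). Of 5 kinesin-2 genes, 3 fell (median -0.13); Kif17, which was below 1 TPM in every library, was at -1.40 while Kif3a was at -0.02 (adjusted p = 0.72).

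From a list of IFT-A adaptors, other ciliary genes and an IFT-A paralog, 4 genes were tested (median -0.35). Of these, Inpp5e, an inositol phosphatase of the ciliary membrane, fell (-0.73) and Arl13b rose (0.13). The rest did not pass, among them Tulp3 at -0.05 (adjusted p = 0.34). Of 4 tested genes of cytoplasmic dynein-1, which moves cargo in the cell body, 2 rose, Dync1h1 (0.50) and Dync1i2 (0.30), and 1 fell, Dync1li2 (-0.25), counts near the shares of all genes. Of 6 ciliary transcription factor genes, 4 fell, Rfx7 (-0.79), Rfx2 (-0.52), Rfx3 (-0.48) and Rfx1 (-0.38), and 1 rose, Rfx5 (0.74). All 8 proliferation genes fell (median -0.61), and their summed level went from 1526 to 1549 TPM at 0 h to 803 to 828 TPM at 2 h, 827 to 892 TPM at 4 h and back to 1544 to 1561 TPM at 24 h in NT; their part in the fall of the members was not tested.

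**Figure D5:**
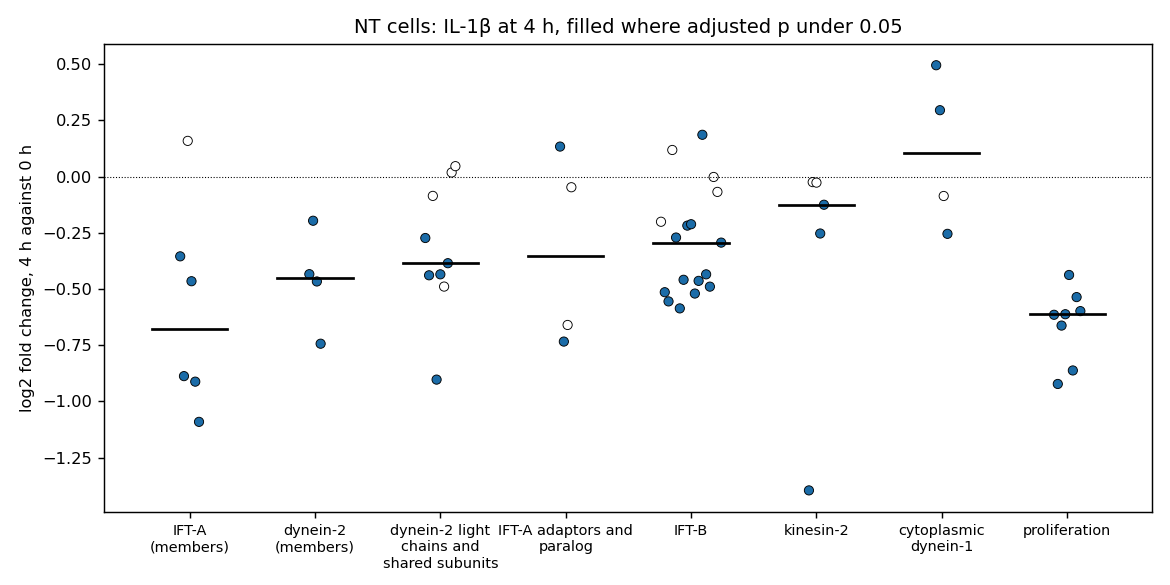
Log2 fold change at 4 h against 0 h in NT for members and related genes, 1 point per gene, filled where adjusted p was under 0.05, with the median as a bar. The members sit mostly below 0, with Ift43 (0.16, but -0.09 on the TPM scale) above it, and cytoplasmic dynein-1 has a median of 0.10.

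Genes that share a start region with a member had values of their own; the difference between neighbours was not tested. In NT at 4 h, Ift140 changed by -0.89 while Cramp1l, whose start is 297 bp away on the opposite strand, was at -0.23 (adjusted p = 0.0032). Ift122 changed by -0.35 and Mbd4, 99 bp away, by -0.07 (adjusted p = 0.54). Dync2h1 changed by -0.43 and Dcun1d5, 74 bp away by the GENCODE starts, by 0.33, though the RefSeq start of Dync2h1 was 7388 bp from that of GENCODE. Dync2li1 starts 101 bp from an antisense gene of the annotation, AC132353.2, whose level was not analysed here. None of the pairs shared exonic bases.

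Across the 12 condition means of log2 CPM, the members varied together more often than not. Of 45 pairs, 40 had a Pearson r above 0 (median 0.64, from -0.38 for Ift43 and Ttc21b to 0.95 for Wdr19 and Wdr34). The means share libraries and the time of IL-1β, so r is a description here. Set against the mean of the others, Wdr34 (0.99) and Wdr19 (0.96) were closest and Ttc21b (0.26) and Ift43 (0.18) farthest. The 5 genes outside the members whose profile was most like the mean of the members, out of 16700 compared over the 12 means, were Rab40b and Plcg1 (r = 0.99 each), Sgsh (0.99), Megf9 (0.98) and Smpd2 (0.98).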

How the data were processed

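Reads were aligned by the authors to GRCm38 with Hisat2 2.1.0, and the deposited counts per gene were made with featureCounts (Subread 1.6.3) as whole numbers without normalisation; its default, given in the methods, ignores strand. The deposited TPM values per gene were made by the authors with Salmon 0.9.1. All sample columns matched the labels, and 0 were left unused. Testing used edgeR 4.0.16 under R 4.3.3 on the counts (TMM scaling, filterByExpr, quasi-likelihood F-tests, two-sided, Benjamini-Hochberg over all genes tested). A gene passed at an adjusted p under 0.05 and was called with a fold change over 1.5 in addition. Each time point was tested with its 6 libraries, each IL-1β course with 18 libraries and the differences with all 36. CPM used TMM factors of all 36 libraries, and SE is the absolute log2 fold change over the square root of F.

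DESeq2 1.42.0, limma 3.58.1 on log2(TPM + 1) or log2(TPM + 0.1), other scalings and filters, a replicate block and leaving out single libraries were tried. The tests were tried on simulated counts. In these, 200 genes with a mean of at least 50 counts were doubled or halved and all others were held level. In the comparison of 4 h with 0 h in NT (16048 genes), 99.5% of the 200 were recovered. Recovery of smaller changes was not tried. Replicates differed beyond sampling noise (chi-square per degree of freedom 1.71 to 10.9), so none was counted as a duplicate. Reads carried no molecular identifiers, so depth counted reads and not separate molecules.

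The members and the lists were chosen with earlier results of these data known. Every member is named, with Ift88 as the check of the siRNA, genes starting within 1000 bp of a member on the opposite strand (1 of them not analysed here), and the 5 genes most like the members; members of the lists are named as examples, chosen after their values were seen. Promoters came from RefSeq and gene positions from the GENCODE annotation of GRCm38.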

Additional observations from a re-analysis of the deposited data

Results flagged for a closer look

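Wdr35 had all its IFT88siRNA libraries below those of NT before IL-1β and above them at 8 h, as 16.8% and 13% of all genes did. At 0 h the 3 IFT88siRNA libraries (91.5 to 95.6 CPM) lay below the 3 NT libraries (100.2 to 105 CPM), and at 8 h they lay above (44.8 to 48.9 against 42.6 to 43.8 CPM), where the difference did not pass (0.10, adjusted p = 0.32). Tested as the change from 0 h to 8 h in IFT88siRNA minus that in NT, the difference was 0.25 on the log2 scale (SE 0.074) and did not pass (adjusted p = 0.11, edgeR's quasi-likelihood test).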

How the results depend on the processing

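On adjusted p alone, members changed numbered 2 at 0 h, 1 at 1 h, 10 over the NT course, 10 over the IFT88siRNA course and 1 for the siRNA over time. Over the IFT88siRNA course, 8 members were called with upper-quartile scaling and in each TPM fit (log2(TPM + 1), log2(TPM + 0.1) and no filter), in place of 3, and 3 to 5 when leaving out 1 library. Genes called over this course numbered 6950 to 8903 over the settings that kept every library, in place of 7781, and 7795 to 8133 when leaving out 1 library. Upper-quartile scaling moved the median of all genes at 4 h in IFT88siRNA by -0.11, and the TPM fits by -0.18 (TPM + 1) and -0.21 (TPM + 0.1). Relative to the median, Ift43 was 0.16 higher and Ift140 1.10 lower on the log2(TPM + 1) scale. Among changes that had passed, those that turned did so on the TPM scale: Ift122 in IFT88siRNA at 1 h (-0.052, and -0.055 with the smaller pseudocount) and at 2 h (-0.070 and -0.074), and Ift43 in IFT88siRNA at 4 h (-0.030 and -0.031); of those that had not passed, Wdr34 in NT at 2 h (-0.25) and Dync2li1 in IFT88siRNA at 2 h (-0.15, in place of 0.08) passed lower there. On log2(TPM + 1) the median of all genes in IFT88siRNA was itself at -0.13 at 1 h, -0.19 at 2 h and -0.19 at 4 h. In NT at 2 h it was at -0.22. Relative to these medians, Ift122 was at 0.08 and 0.12, Ift43 at 0.16, Wdr34 at -0.03 and Dync2li1 at 0.04. The cause was not tested. Changes that had passed at single members and times did not pass in 79 cases across the other settings and in 63 on leaving out single libraries. These were most often those of Wdr34 and Wdr60 in IFT88siRNA at 8 h, Ttc21b in NT at 24 h and Wdr35 at 0 h.

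Same-numbered libraries of the siRNA groups did not deviate together (r -0.133 to 0.223 over 18 pairs, 2 of them over 0.1), so the replicate numbers were not read as pairs. With the replicate block, 0 members were called at any time, as without it. Members passing the joint test of the siRNA numbered 3 with the block in place of 1. Without the block 31.8% of all genes passed. The share with the block is not given here, so the 3 cannot be set against it. Genes called at 2 h numbered 115 in place of 73. Wdr35 at 0 h missed the threshold with the block (adjusted p = 0.052, edgeR's test). With DESeq2, genes called at 0 h numbered 169 in place of 341, at 1 h 217 in place of 393, at 4 h 34 in place of 64 and at 24 h 116 in place of 175. Over all settings that kept every library, genes called for the siRNA ranged from 75 to 406 at 0 h, 51 to 473 at 1 h, 11 to 142 at 2 h, 13 to 100 at 4 h, 22 to 245 at 8 h and 34 to 217 at 24 h, and those with a different response from 115 to 345 (201 as reported); the lowest were on the TPM scale without a filter. Leaving out IFT88siRNA replicate 3 of 8 h raised the genes called there from 105 to 583 and let Dync2h1 pass. Leaving out any of the other libraries of 8 h except IFT88siRNA replicate 1 lowered it to between 47 and 63. The count at 1 h was 217 without IFT88siRNA replicate 1 and 230 without NT replicate 3, and at 24 h 103 without IFT88siRNA replicate 2. At 2 h it was 208 without NT replicate 2, 28 and 41 without NT replicate 1 and 3, and 33 and 22 without IFT88siRNA replicate 1 and 2. At 4 h it was 36 without NT replicate 3, and 23 and 140 without IFT88siRNA replicate 1 and 3. Genes called over time numbered 868, but 451 and 575 without replicate 1 and 2. Without all libraries numbered 1, genes with a different response fell to 62. Wdr60, the member with the fewest reads, had the largest standard errors of the changes in NT.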
